A study of Homo sapiens with 6 samples.

Results

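Aminoacyl-tRNA synthetases load amino acids onto their tRNAs before translation. A set of 37 genes was examined, made up of 19 cytosolic synthetases, 16 mitochondrial synthetases and 2 scaffold proteins that hold several cytosolic synthetases together. They were chosen by name, as the listed members of this enzyme family, and each name matched 1 of the 62710 Ensembl gene IDs in the expression table. RNA was measured by sequencing in HT1080, an established human fibrosarcoma cell line. The 3 untreated libraries were compared with 3 libraries from cells given 20 ng/mL IFNβ for 24 h. All libraries came from this single line in culture, and the labels give no other treatment or genetic change. The labels and the study's cell culture section name human IFNβ, whereas its RNA sequencing section names the mouse protein. The study states in general that its cell culture experiments used independent biological replicates, but the labels do not say whether the libraries of a group came from separate cultures. The p-values measure the spread between these libraries, which would be technical if they did not.

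Most eukaryotic cells keep separate nuclear genes for the cytosolic and the mitochondrial enzyme of an amino acid, and both kinds are made in the cytosol. Several cytosolic enzymes sit in a multisynthetase complex, whose scaffolds include AIMP1 and AIMP2. Many cytosolic synthetase genes are targets of ATF4, the transcription factor of the amino acid and endoplasmic reticulum stress responses. WARS1, the cytosolic tryptophanyl-tRNA synthetase, is in addition a long-known interferon-induced gene, and its product can be secreted.

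The values are FPKM as the authors computed them, that is, fragments of a gene scaled by its length and by the depth of the library. The libraries had been divided by 22848104 to 32915500 fragments. Differences were tested with limma on log2(FPKM + 0.1) over the 20716 genes with a mean of at least 0.1 FPKM, and a gene passed at a Benjamini-Hochberg adjusted p-value under 0.05 over all of them. All 37 members were tested, and all but VARS2 had at least 113 fragments in every library. The 7 mesenchymal markers examined (among them VIM and FN1) had between 42.7 and 489 FPKM in every library. Of 5 epithelial and 6 leukocyte markers, only CLDN4 and CD74 had a mean of at least 0.1 FPKM. Both rose, but no marker of these lists was above 0.650 FPKM in any library. As a reference for the treatment, 8 interferon signal and response genes rose. Their log2 fold changes were 8.67 (IFIT1), 7.09 (ISG15), 3.35 (STAT2), 3.29 (GBP1), 2.79 (IRF9), 2.43 (GBP2), 1.21 (IRF1) and 0.72 (IRF2).

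WARS1 rose 4.59-fold after IFNβ, whereas every other member stayed within a log2 fold change of -0.49 to 0.25. The untreated libraries had 21.8, 21.7 and 21.9 FPKM of WARS1, and the IFNβ-treated libraries had 99.7, 101 and 98.9 FPKM. These values rest on 3171 to 4571 fragments in untreated and 16055 to 19521 fragments in treated libraries. The treated libraries lay far above the untreated ones and differed little among themselves. The means were 21.8 ± 0.112 and 99.9 ± 1.11 FPKM (n = 3 each, mean ± S.D.), and the log2 fold change was 2.19 ± 0.02 (S.E., adjusted p = 5.2e-09 with limma). By log2 fold change WARS1 ranked 221 among the 20716 genes tested, and 71 among the 4419 genes with a mean of at least 10 FPKM. WARS1 was the only member called a differentially expressed gene (DEG), a gene that passed and whose log2 fold change reached 1 in either direction. Of all genes tested, 4.22% were DEGs. WARS1 (ENSG00000140105) lies on the minus strand of chromosome 14 from 100333788 to 100376805 (GRCh38, GENCODE release 29). In that annotation 10.6% of its exon bases are shared with exons of WDR25 and AL157871.4 on the other strand, and whether the authors counted by strand is not given in the sources used here.

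**Figure D1:**
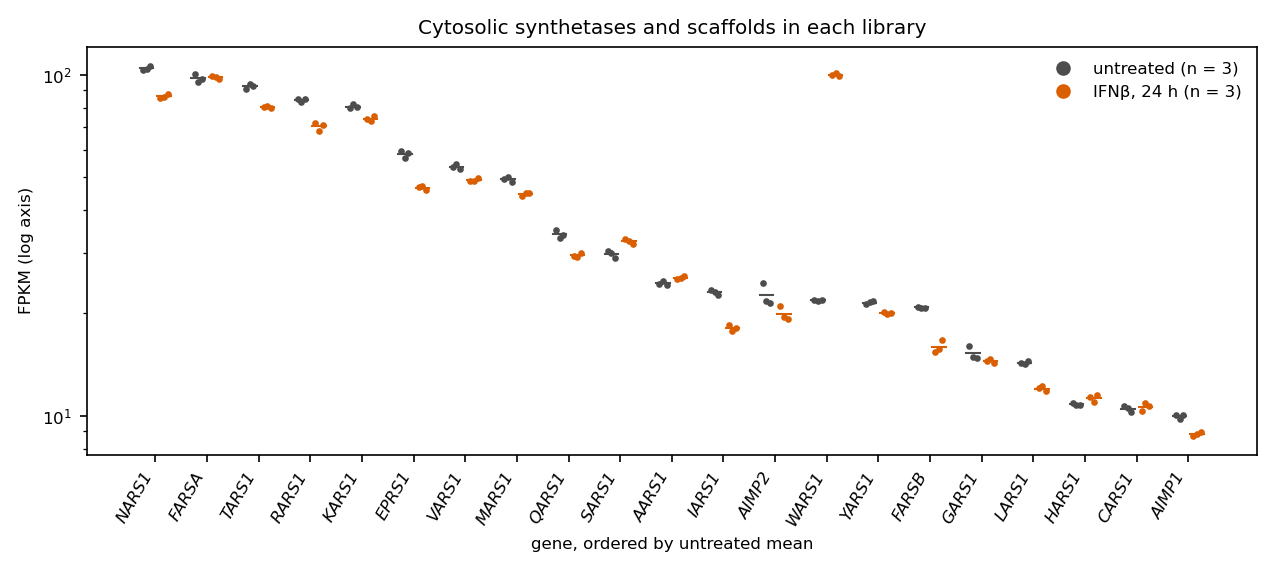
FPKM on a log axis of the 19 cytosolic synthetases and the scaffolds AIMP1 and AIMP2 in each untreated (grey) and IFNβ-treated (orange) library, with a line at each group mean, genes ordered by their untreated mean. WARS1 moves from 21.8 to 99.9 FPKM, while the other genes change by -0.39 to 0.12 on the log2 scale.

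RefSeq (GRCh38.p14) gives 2 transcript starts of WARS1, 980 bases apart. Their promoter windows, from 250 bases before to 50 after each start, are shown because WARS1 is the member with the largest rise, beside a window of WARS2, its mitochondrial counterpart. Capitals mark matches on either strand to GAAANNGAA, a core of the interferon-stimulated response element (ISRE) bound by IRF factors, or to TTCNNNGAA, the gamma-activated site (GAS) of other interferon-responsive promoters. All windows are on the minus strand and are written 5′ to 3′.
WARS1 upstream start, chr14:100376278-100376577: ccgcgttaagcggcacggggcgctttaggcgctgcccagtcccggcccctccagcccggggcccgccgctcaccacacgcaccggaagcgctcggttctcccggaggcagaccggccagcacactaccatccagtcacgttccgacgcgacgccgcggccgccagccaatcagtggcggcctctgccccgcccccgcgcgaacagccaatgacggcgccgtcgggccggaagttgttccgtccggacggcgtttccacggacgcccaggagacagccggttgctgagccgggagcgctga
WARS1 downstream start, chr14:100375298-100375597: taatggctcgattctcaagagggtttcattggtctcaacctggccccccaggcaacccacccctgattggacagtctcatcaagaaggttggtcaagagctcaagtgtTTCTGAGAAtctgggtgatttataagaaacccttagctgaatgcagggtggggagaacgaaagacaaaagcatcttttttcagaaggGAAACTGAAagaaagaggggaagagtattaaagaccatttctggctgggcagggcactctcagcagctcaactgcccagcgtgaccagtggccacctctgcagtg
WARS2, chr1:119140623-119140922: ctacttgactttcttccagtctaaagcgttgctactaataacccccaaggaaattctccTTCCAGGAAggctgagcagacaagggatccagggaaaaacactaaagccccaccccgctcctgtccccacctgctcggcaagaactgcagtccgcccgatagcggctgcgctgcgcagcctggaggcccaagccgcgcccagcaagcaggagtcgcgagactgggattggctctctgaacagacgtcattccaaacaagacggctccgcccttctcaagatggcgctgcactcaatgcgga

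The downstream WARS1 window held an ISRE core, GAAACTGAA, from 55 bases before the start and a GAS, TTCTGAGAA, from 142 bases before it, and these matches do not overlap. The upstream WARS1 window held neither. Windows were at hand for 32 of the 37 members, 44 in all. The ISRE core was found in 6 of these windows, those of AIMP1, GARS1, IARS1, WARS1 and, in 2 windows, EARS2 (13.6%, against 8.11% of all 35116 RefSeq windows). The GAS was found in 7 windows, those of CARS1, PARS2, WARS1 and, in 2 windows each, TARS1 and WARS2 (15.9%, against 7.66%). Windows of a gene can overlap, so these are counts of windows and not of separate sites. The 2 WARS2 windows share a single GAS match, and the matches of the 2 EARS2 windows have the same letters. The downstream WARS1 window was the only member window with both, which 0.95% of all windows hold. IARS1 and AIMP1, with an ISRE core each, and TARS1 and WARS2, with a GAS, were lower after IFNβ. GARS1 and EARS2, with an ISRE core, and CARS1 and PARS2, with a GAS, did not pass. Another motif, TGATGNAA, a core of the C/EBP-ATF response element read by ATF4, was found in 8 member windows (18.2%, against 3.62% of all). These belong to AARS1, CARS1, GARS1, IARS1, MARS1, NARS1, TARS1 and YARS2. The FPKM are per gene, so they do not show which start was used.

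Of the 37 members, 3 passed as higher and 20 as lower after IFNβ, and 14 did not pass. FPKM are relative to the whole library, so in these bulk samples fewer expressing cells and less RNA per cell cannot be told apart. Over all genes tested, 15.2% passed as higher and 17.5% as lower, and their median log2 fold change was 0.00020. Since abundant genes pass more often, the 23 members with a mean of at least 10 FPKM were also set beside the 4419 genes of that level. Of those 23 members, 15 were lower and 2 higher, beside 41.6% lower and 22.5% higher among all genes of that level. The median log2 fold change was -0.16 for these members and -0.069 for all genes of that level. In 23 members every treated library was below every untreated one, and in 6 the reverse held. Over all genes tested these separations were found in 24.3% and 22.3%. The falls were small. In SARS2, with the largest, the treated mean was 0.694 times the untreated one, and the median log2 fold change of the 36 members other than WARS1 was -0.15.

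**Figure D2:**
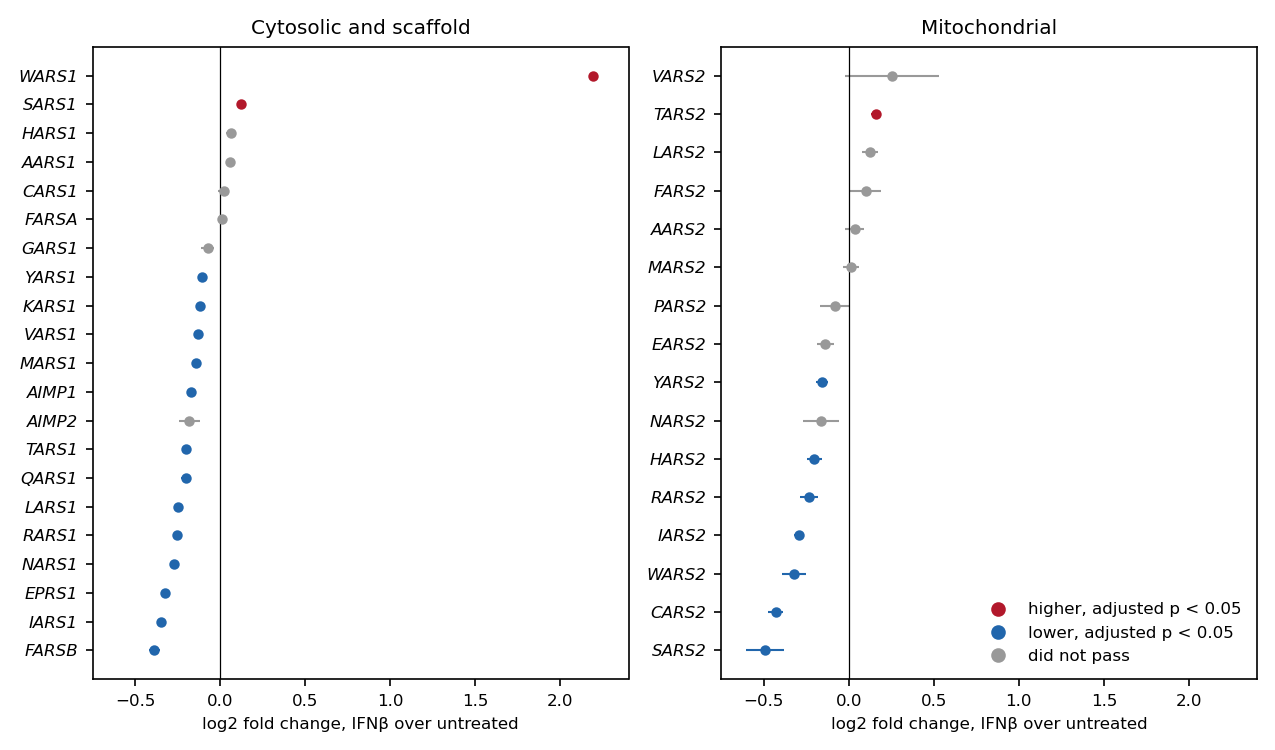
Log2 fold change (IFNβ over untreated) with its standard error from limma for each member, cytosolic synthetases and scaffolds at left and mitochondrial synthetases at right, coloured by whether the gene passed at an adjusted p-value under 0.05. WARS1 stands at 2.19, and the other members lie between -0.49 and 0.25, with 20 lower, 2 higher and 14 that did not pass.

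In the multisynthetase complex every member examined had a negative log2 fold change. The complex was represented by EPRS1, IARS1, KARS1, LARS1, MARS1, QARS1, RARS1, AIMP1 and AIMP2, of which 8 of 9 passed as lower. The log2 fold changes ran from -0.35 to -0.12 around a median of -0.20, and in all 9 the treated libraries were below the untreated ones. Among all genes tested 17.5% passed as lower, and 41.6% did among those of at least 10 FPKM. Treated libraries were all below the untreated ones in 24.3% of all genes tested. For comparison, of the 11 cytosolic synthetases outside this list and other than WARS1, 5 passed as lower and 1 as higher, with a median of -0.074. The difference between these lists was not tested.

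IARS1, the isoleucyl-tRNA synthetase, had 23.4, 23.0 and 22.6 FPKM in untreated and 18.4, 17.7 and 18.1 FPKM in treated libraries, a log2 fold change of -0.35 ± 0.02 (S.E., adjusted p = 1.3e-04 with limma). EPRS1 joins glutamyl- and prolyl-tRNA synthetase in a single protein. It had 59.5, 57.0 and 59.0 FPKM in untreated and 46.9, 47.1 and 46.0 FPKM in treated libraries, a log2 fold change of -0.33 ± 0.02 (S.E., adjusted p = 1.2e-04 with limma). In neither gene did the groups overlap. RARS1 (arginine) and LARS1 (leucine) fell by 0.25 each on the log2 scale and QARS1 (glutamine) by 0.20. MARS1, which charges methionine also onto the initiator tRNA, fell by 0.14. In the annotation, exons of DDIT3 on the other strand are among the 13.3% of MARS1 exon bases that other genes share, and DDIT3 rose in these libraries. KARS1, which makes both the cytosolic and the mitochondrial lysyl-tRNA synthetase, fell from 80.6 ± 1.07 to 74.3 ± 1.03 FPKM (n = 3 each, S.D.), with a limma adjusted p-value of 0.0041.

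The scaffold AIMP1 had 10.1, 9.78 and 10.1 FPKM in untreated and 8.72, 8.84 and 8.95 FPKM in treated libraries, a log2 fold change of -0.17 ± 0.03 (S.E., adjusted p = 0.0033 with limma). AIMP2 had 24.6, 21.7 and 21.4 FPKM against 21.0, 19.5 and 19.2 FPKM and did not pass, with a log2 fold change of -0.18 ± 0.06 (S.E., adjusted p = 0.069 with limma). Its groups did not overlap, but untreated replicate 1 stood above the other untreated libraries. In the annotation 28.9% of the AIMP2 exon bases are shared with EIF2AK1 on the other strand.

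Outside the complex, the lower cytosolic genes were FARSB, NARS1, TARS1, VARS1 and YARS1. FARSB, the beta subunit of phenylalanyl-tRNA synthetase, had the largest fall of a cytosolic gene. Its untreated libraries had 20.9, 20.8 and 20.7 FPKM and its treated libraries 15.4, 15.7 and 16.6 FPKM, a log2 fold change of -0.39 ± 0.03 (S.E., adjusted p = 2.8e-04 with limma). The alpha subunit FARSA, which forms the same enzyme with FARSB, had 100.1, 95.3 and 97.0 FPKM in untreated and 99.0, 98.1 and 97.2 FPKM in treated libraries. Its log2 fold change was 0.0092 ± 0.02 (S.E., adjusted p = 0.80 with limma). The ratio of FARSA to FARSB was 4.69 ± 0.0989 in untreated and 6.18 ± 0.309 in treated libraries (n = 3 each, S.D.), and these did not overlap. The two-sided exact permutation p-value was 0.10, the smallest that 3 libraries against 3 can give, and this ratio was chosen after its values were seen.

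NARS1, the asparaginyl-tRNA synthetase and the most abundant cytosolic member in untreated cells, fell from 104 ± 1.73 to 86.5 ± 1.16 FPKM (n = 3 each, S.D.), a log2 fold change of -0.27 ± 0.02 (S.E., adjusted p = 1.5e-04 with limma). TARS1 (threonine) fell by 0.20, VARS1 (valine) by 0.13 and YARS1 (tyrosine) by 0.11 on the log2 scale. SARS1, the seryl-tRNA synthetase, was the other cytosolic gene besides WARS1 that rose. It had 30.4, 30.0 and 29.1 FPKM in untreated and 32.9, 32.6 and 31.8 FPKM in treated libraries, a log2 fold change of 0.12 ± 0.02 (S.E., adjusted p = 0.010 with limma). AARS1, CARS1, FARSA, GARS1 and HARS1 did not pass, with log2 fold changes from -0.074 to 0.061. GARS1, which supplies glycyl-tRNA synthetase to both compartments, had 15.2 ± 0.675 and 14.5 ± 0.209 FPKM (n = 3 each, S.D.). CARS1, the least abundant cytosolic member, had 10.5 ± 0.215 and 10.6 ± 0.286 FPKM.

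Levels between genes depend on the gene lengths the authors used. The length that the FPKM and fragments imply lay between 0.744 and 6.93 times the exon length in GENCODE release 29, and it was more than 1.5 times as long for 10 of the 37 members. RARS2 (6.93 times), NARS2 (5.19 times), GARS1 (4.18 times) and IARS1 (3.03 times) were the most affected. Changes within a gene do not depend on its length. With the authors' lengths WARS1 ranked 13 of the 19 cytosolic genes in untreated cells and 1 after IFNβ, where its libraries overlapped those of FARSA. With the release 29 lengths it ranked 17 and 1. No other neighbours in the order of the cytosolic levels by the authors' lengths had overlapping libraries. Overlaps in the order by the release 29 lengths were not examined. Added over the 19 cytosolic genes, the level was 847 ± 3.09 FPKM in untreated and 839.8 ± 1.41 FPKM in treated libraries (n = 3 each, S.D.). Without WARS1 the sum was 825.0 ± 3.06 and 739.9 ± 2.58 FPKM. WARS1 thus took 2.57% ± 0.0115 of the cytosolic sum in untreated and 11.9% ± 0.152 in treated libraries, or 2.17% ± 0.0140 and 10.2% ± 0.134 with the release 29 lengths.

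Of the 16 mitochondrial synthetases, 7 passed as lower, 1 as higher and 8 did not pass, with a median log2 fold change of -0.15. Among all genes tested 17.5% passed as lower and 15.2% as higher. The summed level of the 16 mitochondrial synthetases was 139.0 ± 2.60 FPKM in untreated and 122.7 ± 1.65 FPKM in treated libraries (n = 3 each, S.D.). IARS2, the mitochondrial isoleucyl-tRNA synthetase, was the most abundant. It had 52.3, 53.1 and 50.8 FPKM in untreated and 41.8, 43.9 and 41.8 FPKM in treated libraries, a log2 fold change of -0.29 ± 0.03 (S.E., adjusted p = 4.7e-04 with limma). CARS2, the mitochondrial cysteinyl-tRNA synthetase, had 8.58, 8.15 and 8.55 FPKM in untreated and 6.59, 6.09 and 6.02 FPKM in treated libraries, a log2 fold change of -0.43 ± 0.04 (S.E., adjusted p = 6.7e-04 with limma). Neither gene had overlapping groups.

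SARS2, for serine, had the largest fall of all members but few fragments, between 113 and 207. Its untreated libraries had 2.23, 1.73 and 2.03 FPKM and its treated libraries 1.27, 1.46 and 1.43 FPKM, a log2 fold change of -0.49 ± 0.11 (S.E., adjusted p = 0.016 with limma). Without untreated replicate 3 or without IFNβ replicate 1 it no longer passed. In the annotation 57.0% of its exon bases are shared with other genes, AC011455.2 on the same strand and MRPS12 on the other. The other lower genes were WARS2, RARS2, HARS2 and YARS2. YARS2 (tyrosine) lost its call without untreated replicate 1 or 2 or IFNβ replicate 3, and RARS2 (arginine) lost it without untreated replicate 2 or IFNβ replicate 2.

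WARS2 moved the opposite way from WARS1. It had 4.58, 3.92 and 4.11 FPKM in untreated and 3.45, 3.16 and 3.43 FPKM in treated libraries, a log2 fold change of -0.32 ± 0.07 (S.E., adjusted p = 0.015 with limma). The gene (ENSG00000116874) lies on chromosome 1 from 119031216 to 119140671. TARS2, for threonine, was the only mitochondrial gene that passed as higher, with 6.52, 6.68 and 6.50 FPKM in untreated and 7.38, 7.31 and 7.34 FPKM in treated libraries. Its log2 fold change was 0.16 ± 0.03 (S.E., adjusted p = 0.0056 with limma), while that of TARS1 was -0.20. AARS2, EARS2, FARS2, LARS2, MARS2, NARS2 and PARS2 did not pass, with log2 fold changes from -0.16 to 0.13. Without untreated replicate 1 EARS2 passed as lower, and without IFNβ replicate 1 LARS2 passed as higher. VARS2 had 8 to 26 fragments per library and between 0.0541 and 0.139 FPKM. Its log2 fold change of 0.25 ± 0.28 (S.E., adjusted p = 0.55 with limma) was not detectable as a difference at this depth. In the annotation 22.0% of its exon bases are shared with GTF2H4 on the same strand. With the authors' lengths, overlaps between neighbours in the order of levels were common among the mitochondrial genes. Neighbours whose libraries overlapped were AARS2 and MARS2, and FARS2 and PARS2, in both groups. LARS2 and WARS2, and PARS2 and RARS2, overlapped in untreated cells, and HARS2 and YARS2, and SARS2 and NARS2, after IFNβ. The order changes with the release 29 lengths, with which RARS2 moved from rank 13 to 2 and NARS2 from 15 to 9 in both groups.

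**Figure D3:**
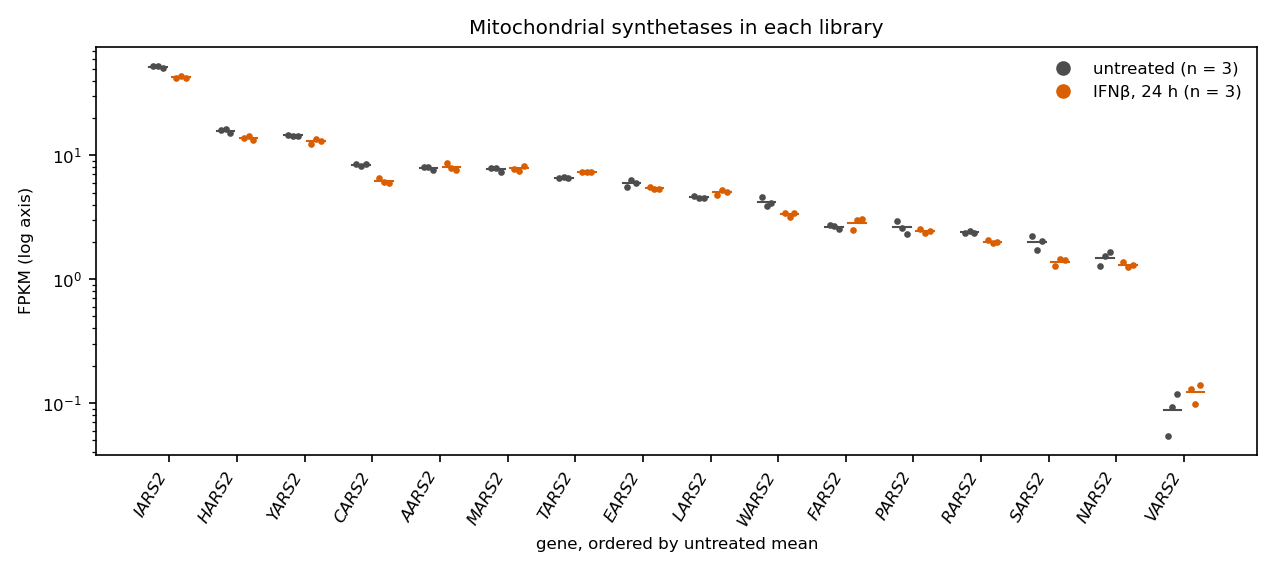
FPKM on a log axis of the 16 mitochondrial synthetases in each untreated (grey) and IFNβ-treated (orange) library, with a line at each group mean, genes ordered by their untreated mean. Levels run from about 52.1 FPKM for IARS2 to 0.0885 FPKM for VARS2 in untreated cells, and most genes shift slightly down or overlap.

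Set against its own family within each library, WARS1 moved from below to above the average cytosolic enzyme. Its log2(FPKM + 0.1) minus the mean of the other 18 cytosolic genes was -0.69, -0.69 and -0.67 in untreated and 1.65, 1.67 and 1.63 in treated libraries, a change of 2.33. Against the 16 mitochondrial genes it was 2.21 ± 0.0096 and 4.52 ± 0.025 (n = 3 each, S.D.), a change of 2.31. The means of the other genes were lower after IFNβ, so both changes exceed the log2 fold change of WARS1 itself.

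The ratio of the cytosolic to the mitochondrial gene was formed for 16 amino acids, with 17 gene pairs in all. For tryptophan, WARS1 over WARS2 was 4.77, 5.52 and 5.32 in untreated and 28.9, 32.0 and 28.8 in treated libraries. This is a log2 change of 2.53, and the groups did not overlap (two-sided exact permutation p = 0.10, the smallest possible). Among the other 16 pairs the log2 change lay between -0.66, for valine with the few fragments of VARS2, and 0.64, for serine, and in 9 of them the groups did not overlap. Of all single genes tested, 24.3% were separated as lower and 22.3% as higher. The share among ratios of other gene pairs was not computed. For serine, SARS1 over SARS2 went from 15.1 ± 1.98 to 23.5 ± 2.12 (n = 3 each, S.D.), since SARS1 rose and SARS2 fell. For cysteine the ratio went from 1.24 ± 0.0479 to 1.71 ± 0.123. Threonine and leucine went the other way, with TARS1 over TARS2 from 14.1 ± 0.133 to 10.9 ± 0.138 and LARS1 over LARS2 from 3.10 ± 0.0832 to 2.39 ± 0.119. The ratio for arginine, where both genes fell, changed by -0.0097 on the log2 scale. HARS1 and HARS2 start 436 bases apart on opposite strands of chromosome 5 and their exons overlap. HARS2 fell by 0.20 on the log2 scale, while HARS1 had 10.8 ± 0.0811 and 11.3 ± 0.240 FPKM and did not pass.

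**Figure D4:**
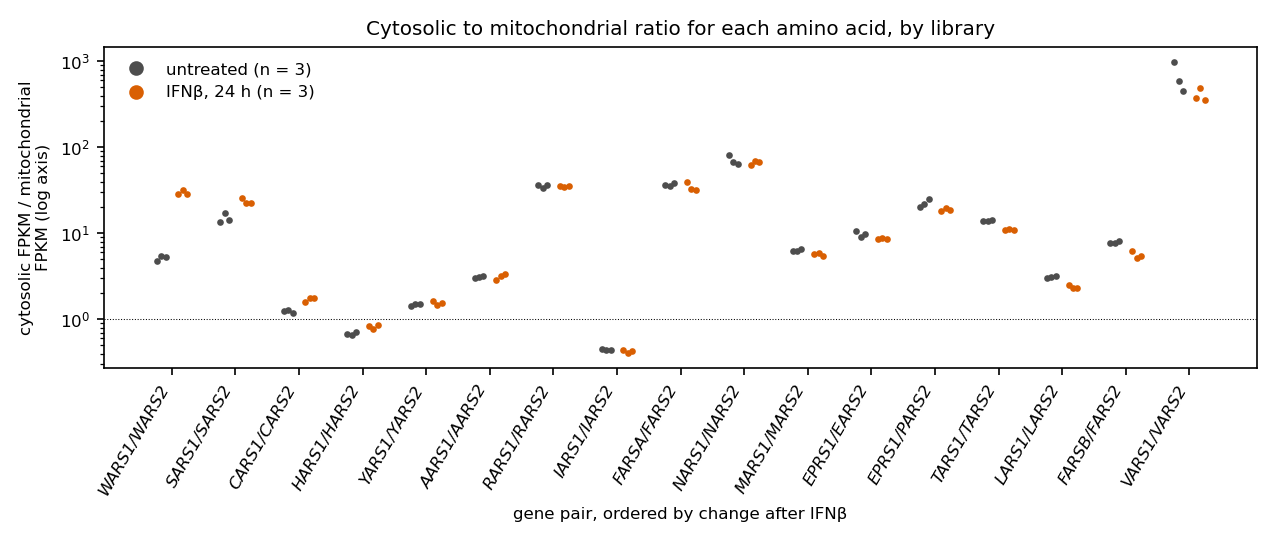
Ratio of cytosolic to mitochondrial FPKM on a log axis for 17 gene pairs in each untreated (grey) and IFNβ-treated (orange) library, pairs ordered by their change. WARS1/WARS2 rises from about 5.20 to 29.9, and no other pair changes by more than 0.66 on the log2 scale.

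By structural class, 12 of the 17 class I enzymes other than WARS1 passed as lower. The 16 class II enzymes included 6 lower and 2 higher. EPRS1 holds an enzyme of each class and was left out. Over all genes tested 17.5% passed as lower and 15.2% as higher, and 41.6% and 22.5% among those of at least 10 FPKM. The difference between the classes was not tested.

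ATF4 targets outside the family did not move in one direction. ATF4 itself had 122.6, 124.5 and 120.4 FPKM in untreated and 113.9, 111.7 and 114.6 FPKM in treated libraries, a log2 fold change of -0.11 ± 0.02 (S.E., adjusted p = 0.0062 with limma). Of the list of ATF4 and 20 of its known targets, 7 passed as higher and 7 as lower, with a median of 0.0044. The higher genes were ATF5 (log2 fold change 0.86), DDIT3 (0.69), STC2 (0.49), CHAC1 (0.44), SESN2 (0.40), TRIB3 (0.19) and SLC3A2 (0.16). The lower genes besides ATF4 were SLC7A1 (-0.45), XPOT (-0.34), CEBPB (-0.27), PSAT1 (-0.25), SHMT2 (-0.15) and MTHFD2 (-0.10), among which XPOT exports tRNAs from the nucleus. CHAC1 lost its call without IFNβ replicate 1 or 2, and MTHFD2 without IFNβ replicate 2 or 3. ASNS, the asparagine synthetase often used as a readout of this response, was listed at 0.471 ± 0.144 and 0.441 ± 0.0794 FPKM (n = 3 each, S.D.). It did not pass and rests on 43 to 71 fragments per library. Whether the authors' counting missed fragments of ASNS was not tested. Of the 11 cytosolic synthetases other than WARS1 that are known ATF4 targets, 7 were lower and 1 higher, and of the 7 that are not, 5 were lower. The counts for the ATF4 list and for these synthetases stand beside 15.2% higher and 17.5% lower among all genes tested. Among genes of at least 10 FPKM these shares were 22.5% and 41.6%.

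Among tryptophan-degrading enzymes, IDO1, which opens the ring of tryptophan and so consumes the substrate of WARS1, was listed at 0 in every untreated library. It had 1.43 ± 0.0874 FPKM (S.D., n = 3) after IFNβ. The log2 fold change was 3.93 ± 0.17 (S.E., adjusted p = 1.5e-05 with limma), and its size depends on the 0.1 added to the FPKM. The study's supplementary list gives IDO1 a low value above 0 in untreated cells, unlike the deposited values. Of the 12 genes of that list 6 were tested. Besides IDO1, KYAT3 was higher (0.32) and AADAT (-0.29) and AFMID (-0.35) were lower, while QPRT and TDO2 did not pass. Over all genes tested 15.2% passed as higher and 17.5% as lower. KMO was under the filter, with 2 to 5 fragments in untreated and 20 to 29 in treated libraries. Without the filter 3 genes of the list were higher and 1 lower. AADAT lost its call without untreated replicate 1 or 3 or IFNβ replicate 1 or 2, and AFMID without any 1 library other than IFNβ replicate 1.

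Of 8 genes for factors that bring charged tRNAs to the ribosome, or for proteins linked to them, 7 were tested. The median log2 fold change of these 7 was -0.25, and 5 passed as lower. This stands beside 17.5% lower among all genes tested and 41.6% among those of at least 10 FPKM. EEF1A1, the main cytosolic factor, fell from 823 ± 11.4 to 639.9 ± 7.08 FPKM (n = 3 each, S.D.), and TUFM, its mitochondrial counterpart, from 163 ± 2.45 to 146 ± 1.04 FPKM. EEF1B2, EEF1A2 and EEF1E1, the last of which is also a scaffold of the multisynthetase complex, fell by 0.41, 0.25 and 0.21 on the log2 scale. EEF1E1 lost its call without any 1 of the untreated replicates or without IFNβ replicate 2. With quantile normalization EEF1A1 did not pass, with a log2 fold change of -0.16 in place of -0.36. EEF1G is listed at 0 in every library, and whether its fragments were lost in the authors' counting was not tested. Of the 4 genes that complete mitochondrial tRNA charging, GATB (-0.28) and GATC (-0.27), subunits of the amidotransferase that makes glutaminyl-tRNA, were lower, and QRSL1 and MTFMT did not pass.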

How the data were processed

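RNA was measured in 3 untreated and 3 IFNβ-treated HT1080 libraries. The authors deposited FPKM per Ensembl gene and library, with no pooling. The submitters' processing notes name fastp, HISAT2, StringTie and GRCh38, without roles, and the annotation, gene lengths and strandedness are not given in the sources used here. Groups and replicate numbers were taken from the sample titles. Whole fragments were recovered from the FPKM steps for 100% of the 35303 genes above 0 (tolerance 0.001). Genes above 0 in few libraries meet this tolerance by construction, and a factor shared by all libraries of a gene would be lost. The recovered fragments came to 99.15% to 99.18% of the number each library was divided by.

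The effect of IFNβ was tested with limma 3.58.1 (R 4.3.3, lmFit and eBayes with trend) on log2(FPKM + 0.1), which understates changes of low genes, across all genes with a mean of at least 0.1 FPKM and no covariate. The procedure was tested on simulated data. Ratios were tested by exact permutation (Python 3.11.15, scipy 1.17.1). Gene names came from a table of gene IDs and locations from GENCODE release 29, which lacks 4436 of the authors' IDs. Promoter windows are RefSeq's.

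The members and lists were chosen with earlier results of these data known. Full values are given for WARS1, WARS2, up to 5 highest and 5 lowest members that passed, GARS1, KARS1, the scaffolds, the most and least abundant members, and ATF4, ASNS and IDO1. Other pathway genes past both thresholds, which the rule also names, are given by their log2 fold change, except 1 gene that is not reported here. Other genes named were chosen after their values were seen. Alternatives were other pseudocounts, filters, scalings, thresholds, eBayes without trend, a replicate block, limma-voom on recovered fragments and each library left out. Replicates of a group differed by more than counting noise (chi-square per degree of freedom 1.77 to 3.38).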

Additional observations from a re-analysis of the deposited data

How the results depend on the processing

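WARS1 passed under all 16 other fits, with log2 fold changes from 2.15 to 2.21, and was the only DEG among the members in each. Members that passed as lower numbered 18 to 20 and as higher 3 or 4 with single libraries left out. They numbered 24 and 5 with limma-voom, 17 and 2 without the trend, and 15 and 2 at an adjusted p under 0.01. The shares of 17.5% lower and 15.2% higher among all genes hold for the main fit only. Shares under the other settings are not given here, so the counts in this section cannot be set beside them. Among other cytosolic genes 12 were lower and 1 higher whichever library was left out, and 0 were higher without the trend or at an adjusted p under 0.01 and 2 with limma-voom. Mitochondrial genes numbered 5 to 7 lower and 1 or 2 higher with single libraries left out, 2 higher with limma-voom, and 2 lower at an adjusted p under 0.01. The cause of these moves was not tested. The lower members of the multisynthetase complex numbered 7 to 9 under every setting. With single libraries left out the median log2 fold change was -0.15 to -0.12 for the other cytosolic and -0.16 to -0.12 for the mitochondrial genes, and -0.11 for the latter with a pseudocount of 1. Against the median in place of the mean of the other genes, WARS1 changed by 2.23 (cytosolic) and 2.20 (mitochondrial). With GENCODE release 29 lengths, chosen after seeing the data, its share of the cytosolic sum was 2.17% and 10.2%.

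No scaling moved the median of all genes beyond -0.058. Directions turned among genes that did not pass. With quantile normalization CARS1 was at -0.0058 and MARS2 at -0.0001. With single libraries left out FARSA lay between -0.0068 and 0.0285, AARS2 between -0.0184 and 0.0710, MARS2 between -0.0192 (also -0.0174) and 0.0436, PARS2 between -0.1549 and 0.0043 and ASNS between -0.2479 and 0.1226 (also 0.0687). With limma-voom ASNS was at 0.0042. KARS1, YARS1, SARS1, YARS2, ATF4, MTHFD2, SLC3A2, AFMID and EEF1E1 did not pass without the trend.

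Same-numbered libraries did not deviate together (correlations of 0.063, -0.051 and 0.088 over abundant genes), so the numbers were not taken to pair them. With the replicate block 3 members were higher and 19 lower, and AIMP2 passed while SARS2 and RARS2 did not. VARS2, with at most 26 fragments, sits at the filter, and genes of under 0.1 FPKM rest on few fragments.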
